A study of Drosophila simulans with 22 samples.

Results

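The comparison described here asks how promoter output of Drosophila simulans embryos changed from the hours in which the egg lives on RNA supplied by its mother to the hours that follow the onset of embryonic transcription. It sets 6 of the 22 samples of the series against each other, 3 collected at 0-1, 1-2 and 2-3 h after egg laying and 3 at 3-4, 4-5 and 5-6 h. They were chosen by their stage, before and after 3 h. All came from untreated whole embryos of strain w[501], the strain whose genome serves as the reference, laid in population cages over 1 h and aged, so each sample is a pool of embryos. Each hour has 1 sample, and the 3 neighbouring hours of a group stood in for replicates. The spread behind every error and p-value below is therefore the spread between hours, which holds developmental change as well as technical noise.

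A fly egg carries messenger RNA and protein that the mother deposited during oogenesis, and these run the rapid nuclear divisions that follow fertilization while the nuclei are almost silent. Control then passes to the zygotic genome. A small wave of early transcription is followed by a broad wave as the nuclei are enclosed by membranes to form the cellular blastoderm, and a large part of the maternal RNA is cleared over the same period. The later hours compared here cover gastrulation and germ band extension, when the body axes are subdivided and the neural and muscle lineages are set aside.

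Promoter output was read by RAMPAGE, which sequences cDNAs complete at their 5′ end. The start of each read marks a transcription start site, and a cluster of such sites, called a TSC, stands for 1 promoter. Levels are in RPM, the reads of a TSC scaled to a total of 1000000 in each sample. RPM is a share of the capped RNA in the embryo and carries no information on its total amount. It measures the RNA present, and in whole embryos more RNA per cell cannot be told apart from more cells that hold it, nor less RNA per cell from fewer cells.

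The 6 samples held between 1576683 reads (5-6 h) and 10630843 reads (0-1 h) in TSCs. A single read was therefore worth between 0.0941 and 0.634 RPM. A TSC at 10 RPM had a 95% Wilson interval of 8.24 to 12.1 RPM in the deepest sample and of 6.25 to 16.5 RPM in the shallowest, counting error only. The Spearman correlation of TSC levels was 0.867 to 0.902 among the samples of 0-3 h, 0.842 to 0.871 among those of 3-6 h and 0.718 to 0.838 between the groups, as a description of these libraries. The closest pair across the boundary was 2-3 h with 3-4 h. The gene numbers in the deposited tables matched no entry of the reference table used here (0 of 9322 in the TSC list, 0 of 8460 in the gene table), so promoters are named by their position on the FlyBase r1.4 genome, counted from 1. Markers of maternal RNA, of early zygotic genes or of older embryos held back by the mother could not be looked up for the same reason, and their part in the results was not tested.

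RNA levels of promoters changed on a large scale between 0-3 h and 3-6 h, in both directions and in similar numbers. Of 25410 TSCs, 13439 reached 2 RPM in at least 1 of the 6 samples and were tested. At 3-6 h, 1995 TSCs (14.8%) rose and 1887 TSCs (14.0%) fell, while 9557 did not pass the test. The median change of the rising TSCs was 2.14 on the log2(RPM + 1) scale (quartiles 1.66 and 2.88), and that of the falling TSCs was -2.01 (quartiles -2.76 and -1.57). The median over all TSCs tested was 0.02. Changes over 3 log2 units numbered 436 up and 366 down.

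These calls come from limma with a trend on log2(RPM + 1), at a Benjamini-Hochberg adjusted p under 0.05 over all TSCs tested. The median residual SD between hours of a group was 0.56 log2 units. Leaving out 1 hour changed the counts: 1237 TSCs rose without 0-1 h, 1152 rose and 1078 fell without 1-2 h, 1146 fell without 4-5 h, and 1245 fell without 5-6 h. Testing only TSCs that reached 10 RPM left 1276 that rose. Because hours of a group are treated as equals, a TSC that jumped at the boundary passed more easily than one that climbed hour by hour. The 3-6 h samples lay wholly above the 0-3 h samples for 3227 TSCs (24.0% of those tested) and wholly below for 2908 (21.6%).

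**Figure D1:**
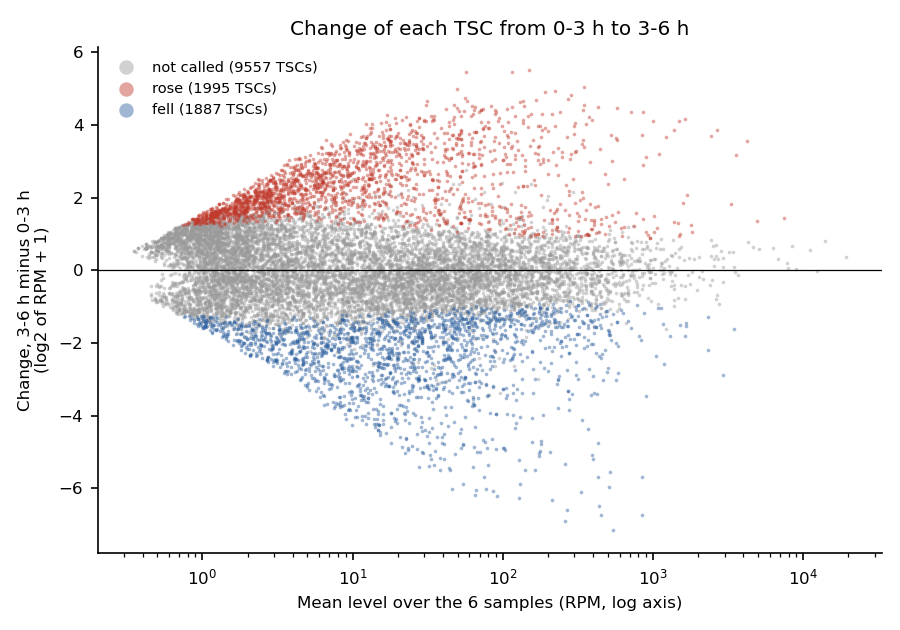
Change from 0-3 h to 3-6 h (log2 of RPM + 1, vertical axis) of the 13439 TSCs tested against their mean level over the 6 samples (RPM, log axis), 1 point per TSC. The 1995 rising TSCs reach 5.52 log2 units and the 1887 falling TSCs reach -7.16, and on the left the pseudocount bounds the change of weak TSCs.

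The 2 classes differed in level over the 6 hours, which are also the hours that made the calls. Falling TSCs started strong, with a median of 37.0 RPM at 0-1 h, 37.9 at 1-2 h and 23.5 at 2-3 h, and then stood at 5.19, 4.53 and 4.44 RPM at 3-4, 4-5 and 5-6 h. Rising TSCs started near the detection limit, with medians of 0.658, 1.36 and 2.10 RPM through 0-3 h, and reached 9.49, 12.5 and 16.5 RPM. The TSCs that were not called stayed between 5.24 and 7.63 RPM in the median at every one of the 6 hours.

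Seen as a share of all reads in TSCs, the rising TSCs held 4.32%, 4.67% and 6.74% at 0-1, 1-2 and 2-3 h, and 20.8%, 22.5% and 23.7% at the following hours. The falling TSCs held 25.3%, 24.3% and 19.3%, and then 5.87%, 5.62% and 5.78%. The direction of this exchange follows from the calls, which use the same hours, but its size did not rest on a few promoters. Without the 10 strongest TSCs of each class, the rising TSCs went from 3.08% at 0-1 h to 18.2% at 5-6 h and the falling TSCs from 21.5% to 4.83%. The TSCs that were not called held 70.1% to 73.7% throughout.

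**Figure D2:**
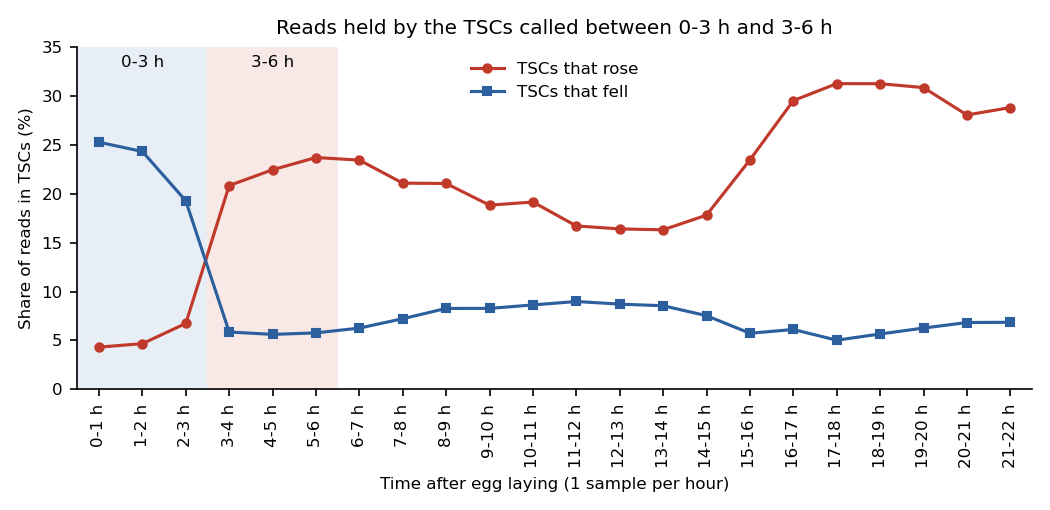
Share of each sample's reads in TSCs (%) held by the 1995 rising and the 1887 falling TSCs at all 22 hours after egg laying, 1 sample per hour. The shaded hours made the calls, and there the falling TSCs go from 25.3% to 5.78% and the rising TSCs from 4.32% to 23.7%. Later hours took no part in the calls.

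The change was concentrated in the hour at the boundary, which the contrast itself favours. The step from 2-3 h to 3-4 h was the largest upward step for 1405 of the rising TSCs (70.4%) and the largest downward step for 1377 of the falling TSCs (73.0%), beside 24.9% and 23.4% of all TSCs tested. Its median size was 1.58 log2 units up and -1.65 log2 units down. The step before it, from 1-2 h to 2-3 h, held the largest drop of 326 falling TSCs (17.3%) and the largest gain of 199 rising TSCs (9.97%), below the 28.0% and 15.8% of all TSCs tested. In all, 329 rising TSCs (16.5%) climbed at every step and 173 falling TSCs (9.17%) dropped at every step, beside 3.46% and 1.58% of all TSCs tested.

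**Figure D3:**
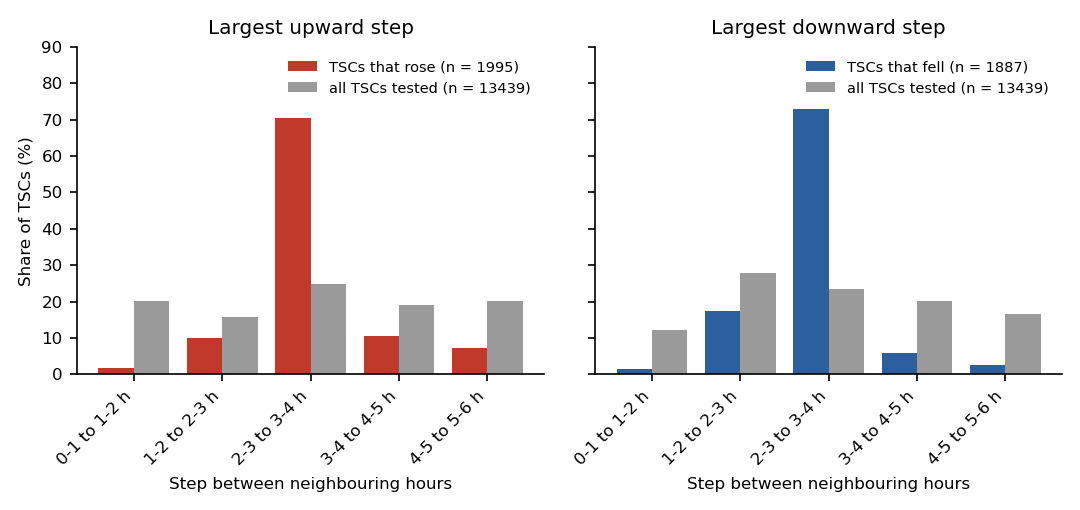
Share of TSCs (%) whose largest upward (left) or downward (right) step falls between each pair of neighbouring hours, for the called TSCs (colour) and for all 13439 TSCs tested (grey). The step from 2-3 h to 3-4 h holds 70.4% of the rising and 73.0% of the falling TSCs.

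Rising promoters had fewer early reads than promoters in general, but many were not at 0. The calls favour low early levels, since they were made from these same hours. Of the 1995 rising TSCs, 868 (43.5%) had at least 1 RPM at 0-1 h and 309 (15.5%) at least 10 RPM, beside 74.4% and 44.5% of all TSCs tested. At the other end, 472 (23.7%) had under 3 reads in 0-1 h and 1-2 h together (9.05% of all TSCs tested), and 98 (4.91%) had 0 reads in all of 0-3 h (2.27%). At 2-3 h, 375 rising TSCs (18.8%) had at least 2 RPM and 2 times or more of either earlier hour, while 273 (13.7%) had no more than 50% of either. Over all TSCs tested these shares were 6.10% and 21.1%. The highest of the 6 hours was 5-6 h for 1015 rising TSCs (50.9%), 4-5 h for 576 and 3-4 h for 404.

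The largest rise belonged to a gene-assigned TSC at X:261750-261934 (+ strand), which held 2.63, 1.64 and 11.3 RPM at 0-1, 1-2 and 2-3 h and 91.6, 207 and 586 RPM at 3-4, 4-5 and 5-6 h (5.52 log2 units, SE 0.70, limma adjusted p = 0.000427). It climbed at every hour after 1-2 h, and its groups did not overlap. The TSC at 2R:5937950-5937978 (- strand), 29 bp wide, behaved differently, with 2.07, 0.273 and 2.94 RPM followed at once by 124, 72.5 and 139.5 RPM (5.45, SE 0.51, limma adjusted p = 0.000184). Here the whole rise fell in the hour from 2-3 h to 3-4 h.

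A narrow TSC of 20 bp at 2L:7192270-7192289 (+ strand) held 1.51, 2.45 and 7.34 RPM at 0-3 h and 62.6, 349 and 273 RPM at 3-6 h (5.46 log2 units, SE 0.66, limma adjusted p = 0.000331). At 3L:2500641-2500668 (- strand) the level was 0.941, 3.54 and 1.26 RPM and then 47.2, 160 and 83.7 RPM, and by 6-9 h its mean was back to 19.5 RPM. Both were highest at 4-5 h, and their groups did not overlap.

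A pair of neighbouring promoters on the + strand of 3R rose together. The TSC at 3R:21676935-21676954, 20 bp wide, went from 6.02, 15.3 and 49.1 RPM to 283, 707 and 1035 RPM. Its neighbour at 3R:21674516-21674711, 196 bp wide and assigned to another gene, went from 5.83, 14.4 and 12.0 RPM to 156, 291 and 849 RPM. Their changes were 5.05 (SE 0.67) and 4.93 (SE 0.58) log2 units, and in both the highest of the 6 hours was 5-6 h.

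The remaining TSCs among the 8 largest gene-assigned rises were at or above their 3-6 h mean over 6-9 h and fell back later. The TSC at 2R:3154788-3154887 (+ strand) held 10.6, 12.5 and 30.2 RPM and then 225, 760 and 663 RPM (4.84 log2 units), peaked over the whole series at 7-8 h with 1566 RPM, and was down to 85.6 RPM at 20-21 h. The TSC at 3L:3769016-3769338 (- strand), 323 bp wide, held 14.0, 21.8 and 3.36 RPM and then 239, 306 and 565 RPM (4.92 log2 units). In the latter, 2-3 h was the lowest of the 6 hours, the mean of 6-9 h was 508 RPM, and 18-19 h held 13.8 RPM.

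The promoters that carried most reads among the rising class changed by less. The TSC at 2L:2715437-2715771 (+ strand) held 363, 445 and 1584 RPM and then 7662, 6467 and 8763 RPM (3.57 log2 units, SE 0.47), and 2-3 h was already more than 3 times 1-2 h. The TSC at 3L:190606-190934 (+ strand) held 500.1, 766 and 868 RPM and then 4286, 7107 and 7868 RPM (3.16, SE 0.33). Another 3 of the 5 strongest rising TSCs were already between 1098 and 4371 RPM at every hour of 0-3 h, and rose by 1.36 to 1.82 log2 units.

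Falling promoters mostly began at high levels. The calls favour this, and low levels at 5-6 h, since they were made from these same hours. At 0-1 h, 1476 of the 1887 falling TSCs (78.2%) had at least 10 RPM, against 44.5% of all TSCs tested. By 5-6 h, 818 (43.3%) were under 10% of their 0-1 h level, beside 11.6% of all TSCs tested. In the shallow 5-6 h sample, 671 (35.6%) had under 3 reads, beside 19.8%, which allows a level of up to 1.90 RPM. The highest hour was 0-1 h for 714 falling TSCs, 1-2 h for 790 and 2-3 h for 383, so 0-1 h was the highest of the 6 in 37.8%. In 426 (22.6%), the 2-3 h level was no more than 50% of either earlier hour, beside 21.1% of all TSCs tested.

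The largest fall was that of a gene-assigned TSC at 3L:14126946-14127054 (- strand), which held 1824, 1172 and 240 RPM at 0-1, 1-2 and 2-3 h and 11.0, 0.697 and 7.61 RPM at 3-4, 4-5 and 5-6 h (-7.16 log2 units, SE 0.81, limma adjusted p = 0.000267). A TSC on 3R, at 3R:7947471-7947595 (- strand), followed the same course, with 846, 591 and 104 RPM and then 4.60, 4.53 and 0 RPM (-6.90, SE 0.82, limma adjusted p = 0.000320). Both were already at their lowest level of the first 3 hours at 2-3 h, and after 6 h neither exceeded 6.28 RPM at any hour.

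A stronger promoter at X:12509665-12509797 (- strand) held 2281, 2101 and 666 RPM and then 37.8, 13.2 and 3.81 RPM (-6.73 log2 units, SE 0.69). Unlike the others, its RNA returned later, with 237 RPM at 11-12 h. The TSCs at 2L:12072653-12072721 (+ strand) and X:4929991-4930083 (- strand) had their highest level at 1-2 h, with 1322 and 391 RPM, and stood at 3.17 and 1.27 RPM at 5-6 h.

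Not all falling TSCs declined from the start. The TSC at 2L:5345240-5345326 (+ strand) held 32.9, 172 and 1395 RPM through 0-3 h and then 1.19, 3.14 and 0 RPM (-6.60 log2 units, SE 1.05, limma adjusted p = 0.00115). Its level was higher at each hour of 0-3 h than at the hour before, dropped within 1 h, and after 6 h it never passed 0.232 RPM. In all, 16 falling TSCs (0.848%) had at least 2 RPM at 2-3 h and 2 times or more of either earlier hour. This was rarer than among all TSCs tested, at 6.10%.

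**Figure D4:**
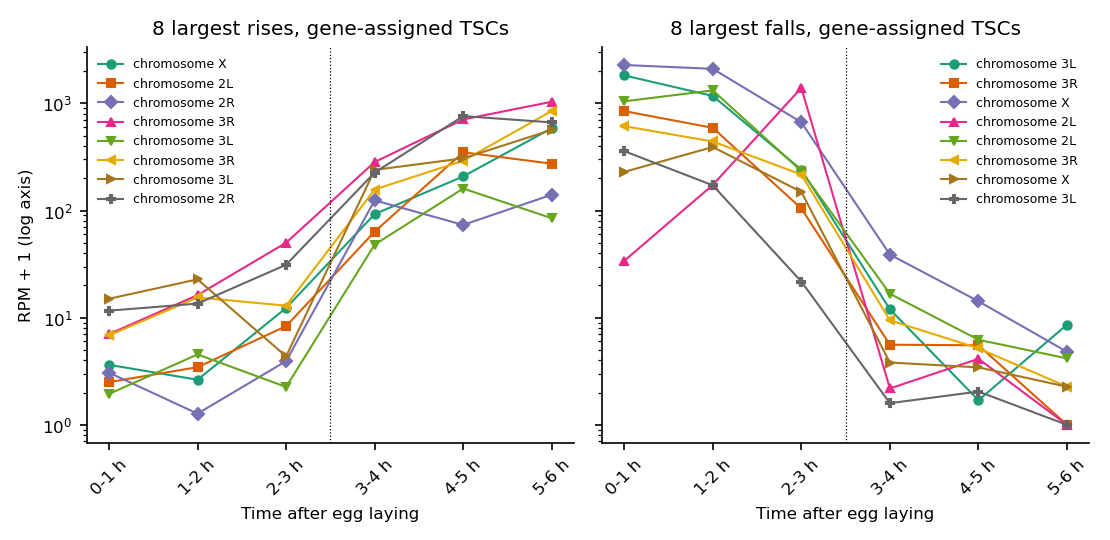
Level (RPM + 1, log axis) at each of the 6 hours of the 8 gene-assigned TSCs with the largest rise (left) and the 8 with the largest fall (right), 1 line per TSC, labelled by chromosome. The dotted line marks 3 h. In the left panel all lines end between 83.7 and 1035 RPM, and in the right panel 1 line on chromosome 2L peaks at 1395 RPM at 2-3 h while the others decline from 0-1 h or 1-2 h.

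Abundant promoters of the falling class kept a sizeable level. The TSC at 3L:8769205-8769224 (+ strand), only 20 bp wide, held 7592, 5477 and 2475 RPM and then 330, 841 and 926 RPM (-2.88 log2 units, SE 0.47). The TSC at 2R:6051115-6051294 (- strand) held 3424, 4134 and 3861 RPM and then 788, 799 and 916 RPM (-2.19, SE 0.26), a single step with flat levels on both sides. Another, 3R:26688395-26688510 (- strand), held 5473, 2115 and 2518 RPM and then 930, 1708 and 1262 RPM (-1.29, SE 0.38, limma adjusted p = 0.0278), and was back at 7667 RPM at 21-22 h. Its call was lost when 0-1, 3-4, 4-5 or 5-6 h was left out, with limma adjusted p between 0.0526 and 0.116.

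Complete absence on one side of the boundary was rare. The strongest of the 98 rising TSCs with 0 reads in 0-3 h was 2R:18414388-18414543 (+ strand), with 4.45, 6.27 and 14.0 RPM at 3-6 h, at least 52.3-fold higher against a floor of 3 reads over the 3 early samples (0.157 RPM). Conversely, 70 falling TSCs had 0 reads in 3-6 h. The strongest, X:5098479-5098661 (+ strand), held 50.3 and 66.8 RPM at 0-1 and 1-2 h but only 0.419 RPM at 2-3 h, and was at least 146-fold lower against the floor of 3 reads over the late samples (0.268 RPM). These TSCs were picked after their values were seen.

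Among the promoters with the highest levels of all, the comparison found no change past the threshold. The TSC at 3R:4813139-4813267 (- strand) held 18025, 11578 and 21853 RPM and then 16463, 23429 and 24855 RPM, with overlapping groups (0.36 log2 units, SE 0.29, limma adjusted p = 0.377). The TSC at 2R:12171866-12172239 (- strand) held 14555, 8991 and 7482 RPM and then 15487, 20501 and 16641 RPM, without overlap and just short of the threshold (0.81, SE 0.29, limma adjusted p = 0.0555), and passed it without 0-1 h (1.09, limma adjusted p = 0.0228). The other 3 of the 5 strongest TSCs not called had changes between -0.03 and 0.55 log2 units.

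Short bursts at the boundary are poorly described by a contrast of 3 h with 3 h. A level at 2-3 h of at least 4 times that of every other hour, and of at least 10 RPM, was found for 41 TSCs, of which 14 were called as falling and the others were not called. The strongest, 2L:1492993-1493123 (- strand), held 233 and 258 RPM, jumped to 7408 RPM at 2-3 h, and then held 1029, 465 and 389 RPM, with a fitted change of -0.42 log2 units (SE 1.04). A further 17 TSCs had 2-3 h and 3-4 h both at 4 times or more of the other 4 hours, and none of them was called. Their definition puts a high hour in each group, which works against a call. The 28.9% called among all TSCs tested is therefore no fair comparison. The TSC at 3R:8561018-8561086 (- strand) led these 17, with 29.0, 71.7, 543, 713, 58.5 and 5.71 RPM through the 6 hours. This description was set after the data were seen and carries no test. The 3-4 h sample alone stood out in this way for 9 TSCs, 3 of them called as rising. The shallowest sample, 5-6 h, stood out for 66, and the part of its depth in this was not tested.

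Hours that took no part in the calls show whether the new levels lasted. The mean of 6-9 h lay above the highest sample of 0-3 h for 1856 rising TSCs (93.0%), beside 37.0% of all TSCs tested, and below the lowest sample of 0-3 h for 1715 falling TSCs (90.9%), beside 31.7%. Every hour of 6-9 h was above every hour of 0-3 h in 1621 rising TSCs (81.3%; 26.1% of all tested), and below in 1558 falling TSCs (82.6%; 23.8%). These comparisons share the 0-3 h samples with the calls.

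After 6 h the classes parted. Over the 22 hours, 933 rising TSCs (46.8%; 22.5% of all tested) had their highest level within 3-6 h, 507 (25.4%; 11.0%) within 6-9 h, 250 within 9-12 h and the rest later. For 1547 falling TSCs (82.0%; 34.95% of all tested) the highest of all 22 hours lay within 0-3 h, and 165 (8.74%; 14.3%) peaked at 12-15 h instead. At 12-22 h, 279 falling TSCs (14.8%) again exceeded their mean of 0-3 h in at least 2 hours, against 42.1% of all TSCs tested, while 277 (14.7%) never passed 10% of it, against 6.42%. The summed share of the rising class came to 31.3% of reads at 17-18 h, but its median TSC had declined, from 16.5 RPM at 5-6 h to 2.58 RPM. A single promoter, 3L:5626830-5626956 (- strand), held 167416 of the 312544 RPM of the class at 17-18 h. It had held 7972 RPM at 5-6 h and reached 181603 RPM at 18-19 h.

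In genes with several promoters, the RNA present could shift from 1 promoter to another. Of 1969 genes with at least 2 TSCs tested, 68 (3.45%) had at least 1 TSC that rose and at least 1 that fell, while 148 had at least 2 rising and none falling and 148 at least 2 falling and none rising. The rising promoter lay upstream of the falling one in 34 genes and downstream in 34, at a median distance of 4504 bp, and in none within 200 bp. In the median gene, the rising promoters supplied 1.44%, 2.73% and 6.71% of the gene's RPM at 0-1, 1-2 and 2-3 h and 58.1%, 55.6% and 61.9% at 3-4, 4-5 and 5-6 h. They supplied over 50% in 5 of the 68 genes at 2-3 h and in 37 at 3-4 h. These genes were picked from the same hours, so the direction of this shift follows from the choice. The summed level of the gene stayed within 2-fold in 29 of the 68, fell by more in 29 and rose by more in 10. The count of 68 was 35 without 0-1 h, 34 without 1-2 h, 39 without 4-5 h and 45 without 5-6 h. With the spread estimated over all hours of the series it was 109.

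The clearest pair lay on the - strand of 2L. The promoter at 2L:21148345-21148441 held 207, 275 and 99.6 RPM and then 10.7, 2.44 and 4.44 RPM (-4.90 log2 units, SE 0.53). Its partner 4258 bp downstream, at 2L:21144151-21144183, held 0.658, 1.64 and 4.82 RPM and then 36.5, 61.0 and 56.4 RPM (4.12, SE 0.52). The exchange was undone later: at 20-21 h the first promoter held 76.2 RPM and the other 2.45 RPM.

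A gene on the - strand of 3R lost far more than it gained. Its promoter at 3R:18860231-18860340 held 703, 885 and 369 RPM and then 12.5, 6.97 and 5.71 RPM, and its promoter 20941 bp downstream, at 3R:18839192-18839399, held 0.282, 1.64 and 8.60 RPM and then 42.1, 36.2 and 60.9 RPM. The upstream promoter also returned, to 143 RPM at 11-12 h. A gene on 2L, with 9 TSCs tested, had a summed level that changed by less than 2-fold. It held a mean of 1062 RPM at 0-3 h and 822 RPM at 3-6 h. Most of its RNA at 0-3 h came from outside the pair of promoters given next. Of that pair, the rising promoter reached the higher levels. There 2L:15455465-15455660 held 134, 113 and 68.8 RPM and then 4.75, 4.53 and 0.634 RPM, and the promoter 2L:15440894-15441169 held 15.4, 30.3 and 257 RPM and then 678, 577 and 473 RPM. The rising promoter was above the other by 2-3 h.

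Of the other 3 genes in this group, the one on 3L with promoters at 16755485-16755523 (falling) and 16749631-16749897 (rising) crossed and crossed back: the rising promoter held 303 RPM at 3-4 h and 53.9 RPM at 6-7 h, and the falling one 19.7 RPM at 5-6 h and 299 RPM at 14-15 h. In the gene with promoters at 3L:8494303-8494628 and 8450335-8450365 the falling promoter began at 2981 RPM and still held 83.1 RPM at 5-6 h, above the 36.2 RPM of the rising one. In the gene on the + strand of 3R with promoters at 20249652-20249904 and 20253488-20253526 the exchange lasted, with 50.7 RPM from the rising and 1.90 RPM from the falling promoter at 5-6 h, and 27.8 and 4.92 RPM at 21-22 h.

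**Figure D5:**
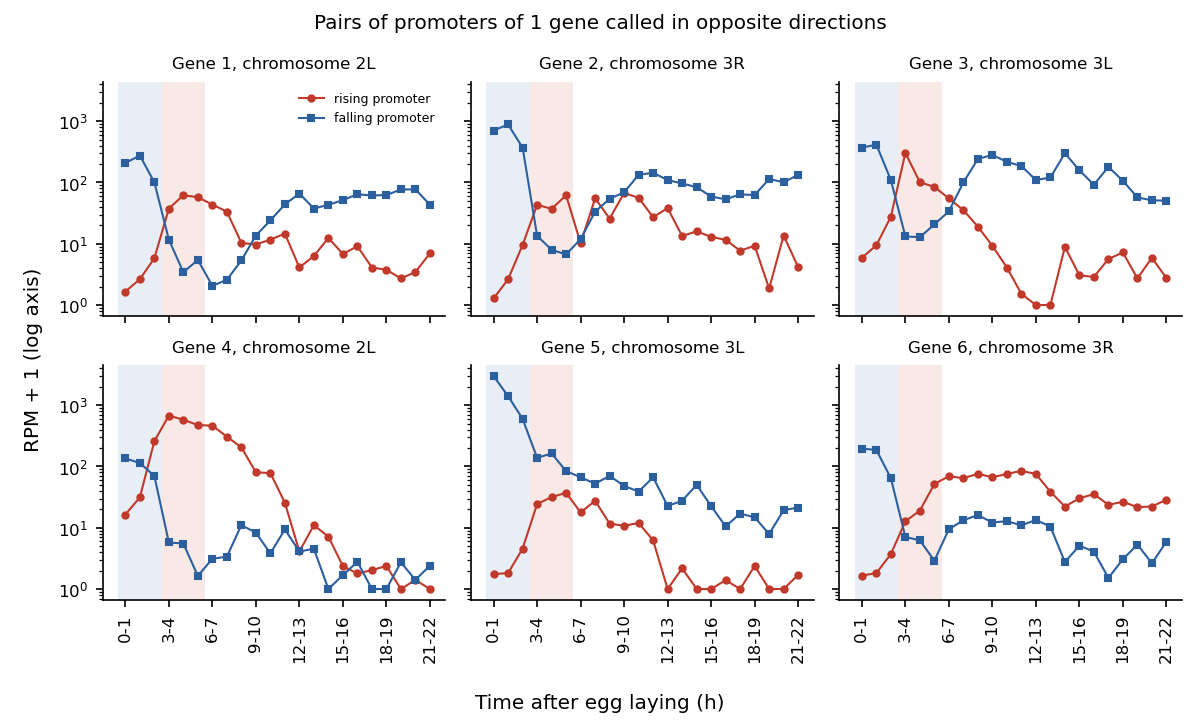
Level (RPM + 1, log axis) of the rising (circles) and falling (squares) promoter of 6 genes at all 22 hours, 1 panel per gene. Genes 1 and 4 are the pairs described on 2L, gene 2 is the pair with the loss on 3R, genes 3 and 5 are those on 3L and gene 6 is the one on the + strand of 3R. Shading marks 0-3 h and 3-6 h. The falling promoters of genes 1, 2 and 3 regain 76.2, 143 and 299 RPM later, which is below their level at 0-1 h and 1-2 h, and those of genes 4, 5 and 6 stay under it by a wider margin.

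Promoters without a gene leaned to the rising side. Of 3084 unassigned TSCs tested, 641 (20.8%) rose and 321 (10.4%) fell, beside 13.1% and 15.1% of 10355 gene-assigned TSCs. Restricted to placed chromosomes, 403 of 1609 (25.0%) rose and 156 (9.70%) fell. They were weak, with a median mean level of 3.08 RPM against 12.2 RPM for gene-assigned TSCs. Among TSCs with a mean level above the median of all tested, 929 of 6719 rose and 1313 fell. The gene-assigned TSCs among them numbered 5756, of which 737 rose and 1119 fell. The unassigned remainder at these levels thus rose and fell in similar numbers. At these levels 13.8% of all TSCs rose and 12.8% of the gene-assigned, which make up most of that total. The unassigned remainder alone therefore rose at a share above 13.8%, so rises were still more frequent in it than among gene-assigned TSCs. The nearest gene-assigned TSC was a median of 2305 bp away for the rising ones and 1254 bp for the falling ones, with 1698 bp over all those tested on placed chromosomes. A few were strong: 2R:12856233-12856321 (+ strand) held 2.82, 10.1 and 17.8 RPM and then 113, 386 and 290 RPM (4.66 log2 units, SE 0.61), and 3L:7866463-7866655 (+ strand) held 1418, 923 and 186 RPM and then 17.2, 15.0 and 5.07 RPM (-5.70, SE 0.68).

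In share of reads, unassigned TSCs held 13.1% ± 0.550 (SD, n = 3) at 0-3 h and 13.5% ± 0.264 (SD, n = 3) at 3-6 h, with overlapping groups (exact permutation test, two-sided, p = 0.3). On placed chromosomes alone the shares were 4.02% ± 0.203 and 4.73% ± 0.287 (SD, n = 3 each), without overlap (exact permutation test, two-sided, p = 0.1, the smallest that 3 against 3 samples allow). The number of promoters detected and the weight of the strongest were both higher in every sample of 3-6 h than in every sample of 0-3 h. At equal depth, 9868 ± 501 TSCs had at least 3 reads at 0-3 h and 10823 ± 488 at 3-6 h, and the 10 strongest TSCs of a sample held 9.39% ± 1.27 and 12.2% ± 0.703 of its reads (SD, n = 3 each; exact permutation test, two-sided, p = 0.1 for each). Neither reached 0.05, which this design cannot give.

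By chromosome, the small chromosome 4 and the X stood on opposite sides of the rest. On chromosome 4, 38 of 105 TSCs tested (36.2%) rose and 4 (3.81%) fell, with a median change of 0.73 log2 units. On the X, 199 of 1623 (12.3%) rose and 314 (19.3%) fell, with a median of -0.25. The arms 2L, 2R, 3L and 3R gave 13.8% to 16.3% rising and 12.1% to 14.9% falling. Among gene-assigned TSCs in the upper levels (mean above 8.73 RPM), 184 of 719 on the X (25.6%) fell, beside 19.4% over all, and 7 of 28 on chromosome 4 (25.0%) rose, beside 12.8%. The share of reads from the X was 11.9% ± 0.356 at 0-3 h and 10.3% ± 0.235 at 3-6 h (SD, n = 3 each), without overlap (exact permutation test, two-sided, p = 0.1, adjusted p = 0.24 over 6 chromosomes). That of chromosome 4 was 0.643% ± 0.114 and 0.630% ± 0.0275 (p = 0.9, exact permutation test).

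The balance of rises and falls varied with width, though not steadily. Of TSCs 26 to 50 bp wide, 21.4% rose and 11.9% fell, and of those 11 to 25 bp wide 15.1% rose and 8.22% fell. The narrowest, up to 10 bp, were called least often, with 8.01% rising and 5.57% falling. From 51 to 200 bp falls were the more frequent, with 16.6% falling and 14.1% rising in the class up to 100 bp, and over 200 bp rises were again, with 17.7% against 13.8%. Narrow TSCs are also weaker, but among TSCs with a mean above 8.73 RPM the share that rose was again highest at 26 to 50 bp, at 33.8% (122 of 361), against 10.8% (241 of 2237) at 51 to 100 bp. Falls there lay between 17.3% and 27.3% in every class above 10 bp. Over 200 bp, 16.9% rose and 17.3% fell at these levels, so the excess of rises among the widest TSCs was not seen there. The medians were 83 bp for rising, 96 bp for falling and 90 bp for all TSCs tested.

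In the order of tested TSCs along placed chromosomes, 873 of 1757 rising TSCs (49.7%) stood directly next to another rising TSC, beside 25.99% of all TSCs tested there. For falling TSCs it was 756 of 1722 (43.9%), beside 25.97%. Leaving out neighbours of the same gene, the shares were 35.5% for rising and 29.2% for falling TSCs, beside 20.7% of all for each. Some stretches held many genes. Between 3L:14255450 and 14287842, 8 successive TSCs of 7 genes rose, with a median change of 3.92 log2 units and the strongest at a mean of 1632 RPM. Between 3R:21699311 and 21717368, 7 successive TSCs of 6 genes rose (median 3.98), close to the pair of rising promoters on 3R described above. Between 3L:12387712 and 12398906, 6 successive TSCs of 6 genes fell (median -2.58), the most genes of any falling stretch. These stretches were chosen after seeing the calls and were not tested. Divergent pairs with starts within 500 bp gave 34 pairs in which both rose, 57 in which both fell and 22 that split, of 1429 pairs. In 212 a rising TSC and in 329 a falling TSC faced a TSC that was not called, and in 775 neither was called. No background share was computed for these counts, so whether divergent pairs moved together was not tested.

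The gene table, which sums the promoters of a gene, carries other gene numbers than the TSC list, possibly those of D. melanogaster orthologs, which the files do not state. It is made from the same reads and is not a second measurement. It gave 739 of 6635 genes tested (11.1%) higher and 1146 (17.3%) lower at 3-6 h by the same limma test. The median change over all genes was -0.16 log2 units. Each gene was tested against a change of 0 and not against this median, so the balance toward lower genes varied with the scaling. With DESeq2 size factors the median shifted by 0.13 log2 units to -0.03, and 868 genes rose and 1003 fell. Leaving out 0-1 h, 1-2 h or 4-5 h left 488, 439 and 459 rising genes, and leaving out 1-2 h or 4-5 h left 634 and 683 falling genes. The read counts at all 22 hours linked 6228 of its 8460 genes to a single gene in the list of TSCs.

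The leading genes were those of the leading promoters. Gene FBgn0000137 held 2.60, 1.62 and 11.2 RPM at 0-3 h and 91.3, 206 and 583 RPM at 3-6 h (5.52 log2 units, SE 0.74), with the read counts of the X promoter that led the rising TSCs. Gene FBgn0000577 rose by 5.45 log2 units (SE 0.52). At the other end, gene FBgn0001120 fell by 7.15 log2 units (SE 0.86) and gene FBgn0261987 fell by 6.89 log2 units (SE 0.87), with the read counts of the promoters on 3L and 3R that had the largest falls. In the table, 135 genes share identical reads with a further gene, 26 of them called, and their values cannot be given to 1 gene.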

How the data were processed

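Per the study's methods, RNA of each hour received its own barcode at reverse transcription and all hours were made into 1 library, so the 6 samples share library preparation and sequencing. Reads were aligned by the authors to FlyBase r1.4 with STAR, and TSCs were called over the whole series, which were assigned to genes from the paired reads. The deposited TSC and gene tables hold RPM, scaled by the authors to the total per sample. The TSC list of the authors carries a score per peak, and only its positions were used. A further deposited table of rescaled gene profiles was not used here.

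Dividing RPM by the value of 1 read gave whole reads for 100% of values (within 0.1 of a whole number, for values up to 2000 reads), from which depth was taken. Duplicate reads are not marked, so intervals and floors of 3 reads cover counting error only, at 95% confidence. Since the deposited unit is RPM, limma 3.58.1 (R 4.3.3) with a trend was applied to log2(RPM + 1), separately for TSCs and for genes that reached 2 RPM in any of the 6 samples, with the group of 3 h as its only factor and no covariate. A change on this scale understates that of weak TSCs. As alternatives, edgeR 4.0.16 and DESeq2 1.42.0 were run on the recovered reads. The fit was tested on simulated data.

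Named TSCs are the 8 gene-assigned and 3 unassigned TSCs with the largest rise and fall among those called without overlap, the 5 strongest called in each direction, the 5 strongest not called, and the 6 genes with the largest opposite changes. All counts, comparisons and lists were chosen with earlier results of these data known. Planned lists by gene symbol, and a search for promoter motifs, were not run, as neither gene names nor sequence could be matched. Positions are those of the authors' list.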

Additional observations from a re-analysis of the deposited data

How the results depend on the processing

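Over the 17 alternatives for each count, leaving out 1 hour moved most counts furthest (the cause was not tested): 1152 to 1977 TSCs rose, 1078 to 2264 fell, 439 to 802 genes rose, 634 to 1556 fell, and 34 to 86 genes had promoters in opposite directions. Of the other settings, a minimum of 10 RPM left 1276 rising TSCs, and a spread shared over all hours gave 109 genes with opposite promoters. The remaining settings stayed within 1.5 times each count. On recovered reads, edgeR called 1903 rising and 1801 falling TSCs (1735 and 1675 of them shared with limma) and 820 and 983 genes, and DESeq2 called 2313 and 1916 TSCs. Without 2-3 h and 3-4 h, 1926 TSCs rose and 2010 fell, of which 1658 and 1590 were among those of the full comparison.

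Of the 5 named TSCs not called, 2 changed direction. The TSC at 2L:10014584-10014841, at -0.03 log2 units, gave 0.0179 with DESeq2 size factors, 0.0717 without both 2-3 h and 3-4 h, and -0.199 to 0.204 with 1 hour left out, above 0 without 2-3 h (0.204), 4-5 h (0.0221) or 5-6 h (0.0506). The TSC at 3R:27491735-27491881, at 0.05, gave -0.00602 in edgeR and -0.197 to 0.253 with 1 hour left out, below 0 without 0-1 h (-0.197) or 3-4 h (-0.114). No other named TSC and no named gene changed direction, and of the called ones only 3R:26688395-26688510 lost its call, under 6 alternatives (limma adjusted p 0.0526 to 0.116). The difference in unassigned share was 0.208 to 0.740 percentage points without 1 hour, that of the 10 strongest TSCs 2.33 to 3.53, and that of TSCs at equal depth 674 to 1209.67. No paired analysis was possible because each hour has 1 sample and no label pairs hours across the groups. Depth limits the 5-6 h sample most, where 3 reads are 1.90 RPM.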
